A study of Mus musculus with 1111 samples.

Results

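The 9 genes described here handle iron and heme in single mouse microglia, the resident macrophages of the brain. They were chosen by symbol from the deposited count tables and are 9 of 35583 genes. Fth1 and Ftl1 encode the heavy and light chains of ferritin, the protein shell that stores iron. Ncoa4 encodes the receptor that brings ferritin to autophagy. Slc40a1, Slc11a1 and Slc11a2 encode the iron transporters ferroportin, NRAMP1 and DMT1. Hmox1 encodes heme oxygenase 1, which breaks heme down and frees its iron. Aco1 and Ireb2 encode the iron regulatory proteins IRP1 and IRP2.

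The cells came from 3-month-old mice, 20 hours after plasma proteins carrying the fluorescent dye NHS-Atto647N had been injected, and strain and sex are not given. Each microglial cell was sorted by its own plasma signal into plasma none, plasma low or plasma high, and its RNA was read by Smart-seq2, which covers transcripts end to end in a separate library for each cell. All 3 groups come from injected mice, so plasma none is a group of cells with no plasma signal and not an untreated control. No label names an animal, so each group is 1 sample of cells and no p-value is given. The labels carry a number from 1 to 3 after the letters TH, whose meaning is not stated, and the same well names recur across TH numbers. The groups are called none, low and high from here on. Values are given for the 9 sums of cells, 1 for each group and TH number, and an SD (n = 3) is the spread between these sets of wells, not between animals. In every TH number, the none group filled plate columns 1 to 8, the low group 9 to 16 and the high group 17 and above, so plasma signal and plate column cannot be told apart.

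Iron that enters a cell is used, stored in ferritin or exported by ferroportin, the only iron exporter known in mammals. When iron is scarce, IRP1 and IRP2 bind a hairpin in certain mRNAs, the iron-responsive element (IRE). In the 5′ UTR of ferritin and ferroportin mRNAs this stops translation, so the amount of these mRNAs need not follow the amount of protein. When iron is plentiful, IRP1 becomes a cytosolic aconitase and IRP2 is degraded with the help of FBXL5. Microglia take up iron and heme from dying cells and plasma, and ferritin is a well-known marker of iron-loaded microglia.

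This hairpin was searched for in the annotated UTRs of all 9 genes. The search asked for a C, any 5 bases, CAGTG and any 1 base, where the 5 bases pair with the 5 that follow, on the transcript strand, in GENCODE M21 transcripts (GRCm38). Of the 9 genes, 3 held a match, each in the 5′ UTR, within a single exon. These are shown because the proteins of Aco1 and Ireb2 are known to bind elements of this kind, with the bulged C and the 6-base loop in capitals.
Fth1, chr19:9982732-9982760, plus strand: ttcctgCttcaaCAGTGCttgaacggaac
Ftl1, chr7:45459779-45459807, minus strand: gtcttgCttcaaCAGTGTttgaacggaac
Slc40a1, chr1:45925465-45925493, minus strand: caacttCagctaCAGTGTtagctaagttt
The Fth1 and Ftl1 elements shared 26 of 29 bases. The Slc40a1 element shared 13 of 29 bases with each of them. The same search found a match in the 5′ UTR of 31 of 21847 genes with an annotated UTR (0.142%), in the 3′ UTR of 0.659% and in either of 0.801%. For the other 6 members these letters were not found in the annotated UTRs. This does not show that they lack an IRE, since the search asked all 5 bases to pair and misses elements with an unpaired base. Slc11a2, 1 of these 6, stands on the list of known IRE transcripts used here. A match is a description of the sequence, and the RNA counts below do not measure binding or translation.

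After a filter of at least 50000 reads in genes and 500 genes with a read, 987 cells remained, 35.1% of them none, 35.6% low and 29.4% high (290 cells). Reads per sum ranged from 21309816 to 49323522. Depth and other quality measures moved with the groups. Median reads per cell were 207400, 229900 and 267100 in the none, low and high groups, and median genes per cell were 1708, 1994 and 1943. The median share of reads from the 13 mitochondrial genes was 0.603% for none, 0.794% for low and 0.970% for high, and the high group exceeded the none group in every TH number. The part of these differences in the results was not tested, except that depth was levelled by thinning each cell to 50000 reads. In sums of cells, fewer cells carrying a transcript and less RNA per cell cannot be told apart, so the share of cells with a read is given beside the level.

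A gene met the 1.5-fold rule when its log2 ratio between groups, taken within each TH number on CPM (a gene's reads scaled to all reads of the sum, with TMM factors) plus a pseudocount of 1, averaged at least 0.585 in size with 1 sign shared by the 3 TH numbers. A mean of at least 20 CPM and detection in 10% or more of the cells of either group were also asked. Below, "rose" and "fell" are kept for genes that met this rule. In each comparison 6 of the 9 members passed the 2 conditions on low values, and Slc11a2, Hmox1 and Aco1 did not.

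Ferritin was the most abundant of these transcripts, and both chains were highest in the high group. Fth1, the chain that oxidises iron for storage, had 1551, 1304 and 984.1 CPM in the none group of TH 1, 2 and 3 (1280 ± 284.3, SD, n = 3). The low group had 1799, 1629 and 1232 CPM (1554 ± 291.1), and the high group had 2246, 1746 and 1570 CPM (1854 ± 350.5). All 3 high sums lay above all 3 none sums, as in 8.51% of the genes tested, while the low group overlapped both. Within every TH number the order was none, low, high, and TH 3 had the lowest Fth1 level in each group. The log2 ratio of high to none was 0.53, 0.42 and 0.67 in TH 1, 2 and 3, with a mean of 0.54 ± 0.13 (1.46-fold). This mean is just under the 1.5-fold rule. It passed the rule when every cell weighed the same (0.62), after thinning (0.63), without the outermost wells (0.61) and without TH 2 (0.60). Over 16 alternatives it ranged from 0.48 to 0.63.

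Ftl1, the chain that helps the iron core form, had 773.8, 648.9 and 673.8 CPM in the none group (698.8 ± 66.1). It had 937.2, 884.1 and 716.7 CPM in the low group (846 ± 115.06) and 992.8, 1034 and 807.8 CPM in the high group (944.8 ± 120.4). Again the high sums lay above the none sums without overlap, and the low group lay between within each TH number. The log2 ratio of high to none was 0.43 ± 0.21 (1.35-fold), and it ranged from 0.31 to 0.52 over 16 alternatives. It did not meet the rule in any of these 16.

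Of all 5534 genes tested in high against none, 18.8% were higher in 3 of 3 TH numbers, as Fth1, Ftl1 and Ncoa4 were. Among the 791 genes with a mean of at least 200 CPM, where both ferritin chains stand, this share was 25.3%, and 5.82% met the 1.5-fold rule upward. The order none, low, high in all 3 TH numbers, looked at after its values were seen in Fth1 and Ftl1, occurred in 2.1% of the genes tested and in 4.8% of those with at least 200 CPM. The opposite order occurred in 2.65% of the latter.

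**Figure D1:**
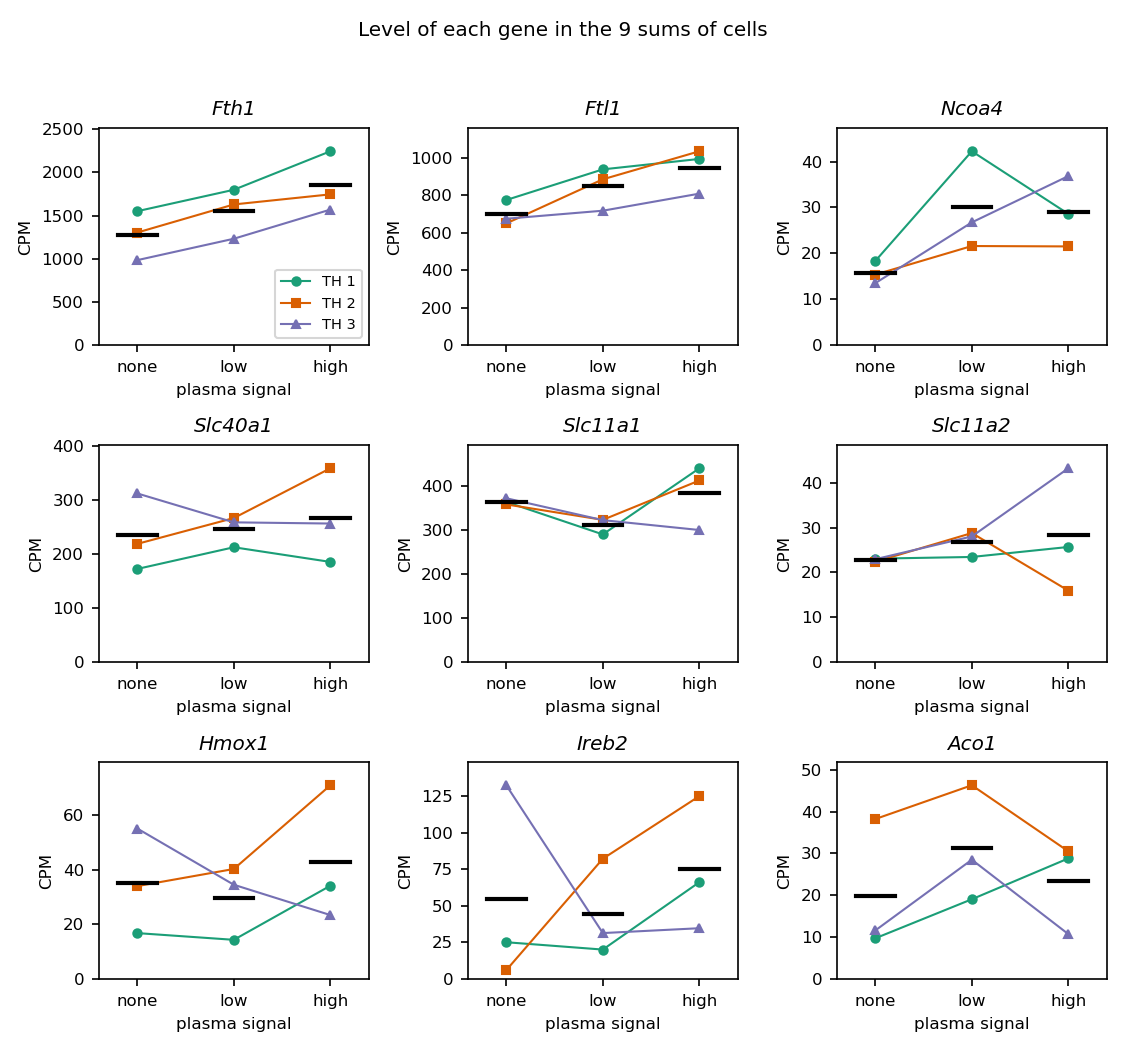
Level of each of the 9 genes in CPM (vertical axis, linear, from 0) in the 3 groups of plasma signal, with 1 line per TH number and a black bar at the mean of 3. Fth1 and Ftl1 climb from none to low to high in each TH number, Ncoa4 is lowest in the none group in each, and no other gene has the order none, low, high or its reverse in all 3 TH numbers.

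Together the ferritin chains took 0.200% ± 0.034 of all reads in the none group, 0.242% ± 0.041 in the low group and 0.275% ± 0.040 in the high group. The high group exceeded the none group by 0.082, 0.073 and 0.069 percentage points in TH 1, 2 and 3 (0.075 ± 0.007). TH 1 had the highest and TH 3 the lowest share in every group, and the difference varied less between TH numbers than the share itself. The balance between the chains moved less. Fth1 made up 64.3% ± 4.27 of ferritin reads in the none group, 64.6% ± 1.28 in the low group and 66.1% ± 3.26 in the high group. The difference between the high and none groups was 2.62, −3.95 and 6.67 percentage points (1.78 ± 5.36), so its sign differed between TH numbers. In single cells with at least 100 ferritin reads, the median Fth1 share was 65.6% for none, 65.8% for low and 67.2% for high (947 cells in all).

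The difference in ferritin was also seen in its distribution over cells. A read of Fth1 was found in 96.8% of none cells (exact Clopper-Pearson 95% interval 94.4 to 98.4, counting error only, as are all intervals here), in 98.3% of low and in 98.97% of high cells. For Ftl1 these shares were 97.1%, 98.9% and 97.2%. The median cell had 1085 CPM of Fth1 in the none group, 1447 in the low group and 1624 in the high group. Cells with at least 1000 CPM of Fth1 were 53.5% of the none group (95% interval 48.1 to 58.8), 70.1% of the low group (64.997 to 74.8) and 75.5% of the high group (70.2 to 80.4). By TH number, this share was 67.2%, 58.4% and 35.04% in the none group and 83.2%, 71.9% and 70.97% in the high group. For Ftl1, 23.1% of none cells, 31.6% of the low group and 36.2% of the high group reached 1000 CPM. The median cell of Ftl1 did not follow the order of the sums. It had 551.5 CPM in the none group, 765.2 in the low group and 741.4 in the high group. In TH 1 the Ftl1 medians were close, with 720.2 CPM in the none group and 738.5 in the high group, while in TH 2 they were 526 and 745.1 and in TH 3 503.9 and 734.7.

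**Figure D2:**
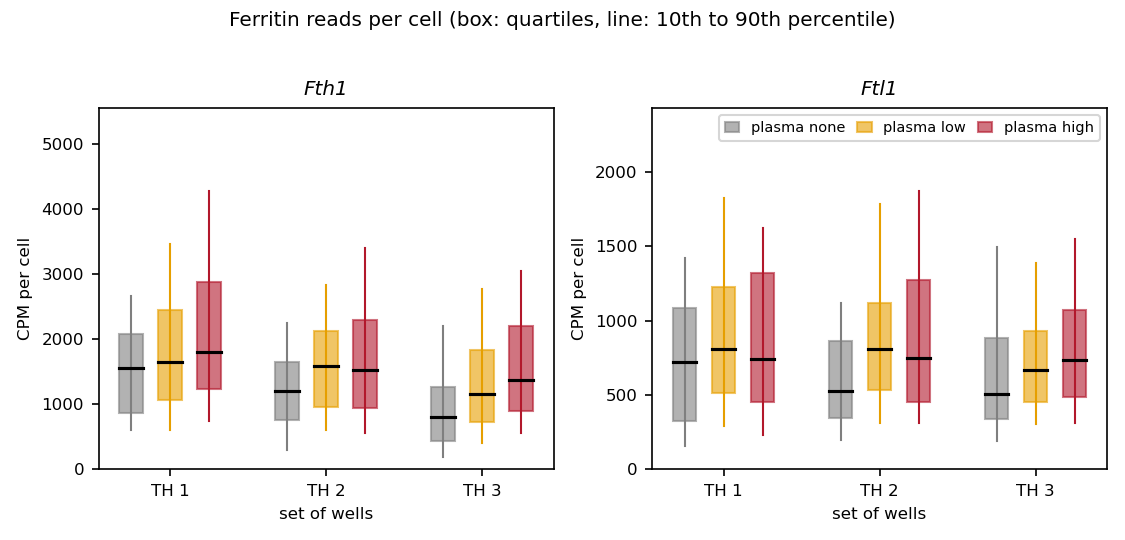
Fth1 and Ftl1 per cell in CPM (vertical axis) by TH number and group; boxes span the quartiles, black bars mark the median cell and thin lines run from the 10th to the 90th percentile of the cells. The median of Fth1 in the none group lies below that of the high group in each TH number, and the boxes of all groups overlap widely.

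Summed by plate column over the TH numbers, Fth1 ranged from 995.5 to 1440 CPM (median 1263) in the 8 columns of the none group. It ranged from 1327 to 1953 CPM (median 1564.5) in the 8 columns of the low group and from 1381 to 2452 CPM (median 1763) in the 7 columns of the high group with passing cells. Ftl1 ranged from 588.3 to 839.6 CPM (median 660.8), from 755.2 to 943.7 CPM (median 851.7) and from 867.9 to 1180 CPM (median 907.5). Columns of the none group overlapped those of the low group for both genes. They overlapped those of the high group for Fth1 and not for Ftl1. Columns of a group are not replicates, since they share their cells' source and neighbour each other on the plate.

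**Figure D3:**
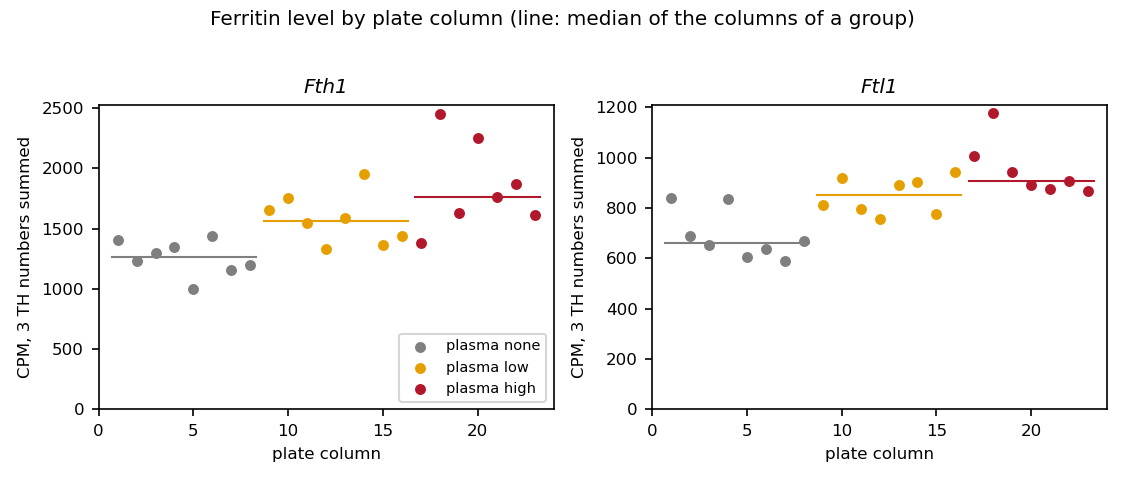
Fth1 and Ftl1 in CPM (vertical axis, from 0) for each plate column (horizontal axis), with the reads of the 3 TH numbers summed and a line at the median of each group's columns. The median of the none group's columns is the lowest for both genes, at 1263 CPM for Fth1 and 660.8 CPM for Ftl1, single columns of different groups overlap, and the groups occupy separate blocks of columns.

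Ferritin has close copies in the genome, so the counts were read beside them. Ftl1-ps1 had 734 reads over all passing cells (2.55 ± 1.14 CPM over the 9 sums). Ftmt, the mitochondrial ferritin, and the 6 Fthl17 genes in the tables had 0 reads. The processed ferritin pseudogenes are not among the genes with a value here. Gm10252, a gene on the opposite strand that overlaps an exon of Ftl1, had 22.8% to 24.4% of the Ftl1 reads in the 9 sums. No cell had reads of Gm10252 without reads of Ftl1 (0 of 987 cells). The use of strand in counting is not stated, so reads of these genes cannot be told apart.

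Ncoa4 was the only member that rose against the none group, and it did so in both comparisons. It had 18.3, 15.4 and 13.5 CPM in the none group, 42.2, 21.6 and 26.7 CPM in the low group and 28.6, 21.5 and 36.8 CPM in the high group. All 3 none sums lay below the 6 others, and the low group and the high group overlapped. The mean of Ncoa4 was 15.7 CPM in the none group, 30.19 in the low group and 28.97 in the high group. So in both comparisons Ncoa4 met the condition of 20 CPM only through the group where it was higher. Of all genes tested, 5.34% had low sums above the none sums without overlap. The log2 ratio was 0.86 ± 0.36 for low to none (1.81-fold) and 0.82 ± 0.50 for high to none (1.77-fold). So 1 of the 6 members tested met the rule in high against none, where 16.3% of all genes tested did (9.34% upward). In low against none it was again 1 of 6, where 10.2% of all genes did (6.03% upward). The members' counts are near these shares. Of the 6 tested, Fth1, Ftl1 and Ncoa4 were higher in low than in none in 3 of 3 TH numbers, beside 16.7% of all genes.

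Ncoa4 was read in few cells, and its level rested on them. A read was found in 16.8% of none cells (95% interval 12.98 to 21.1), 23.6% of the low group (19.3 to 28.4) and 24.8% of the high group (19.96 to 30.2). After thinning to 50000 reads the shares were 12.1%, 20.5% and 22.8%. The cell with the most Ncoa4 reads held 8.85% of them in the none group, 22.6% in the low group and 17.04% in the high group. The high call was lost without the top cell of each sum (0.66, where the mean of Ncoa4 fell under 20 CPM). It was also lost without the outermost wells (0.57), without TH 3 (0.54) and among cells of 100000 to 400000 reads (0.07). The low call was lost without the top cell of each sum (0.58) and without TH 1 (0.70, where its mean fell under 20 CPM).

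**Figure D4:**
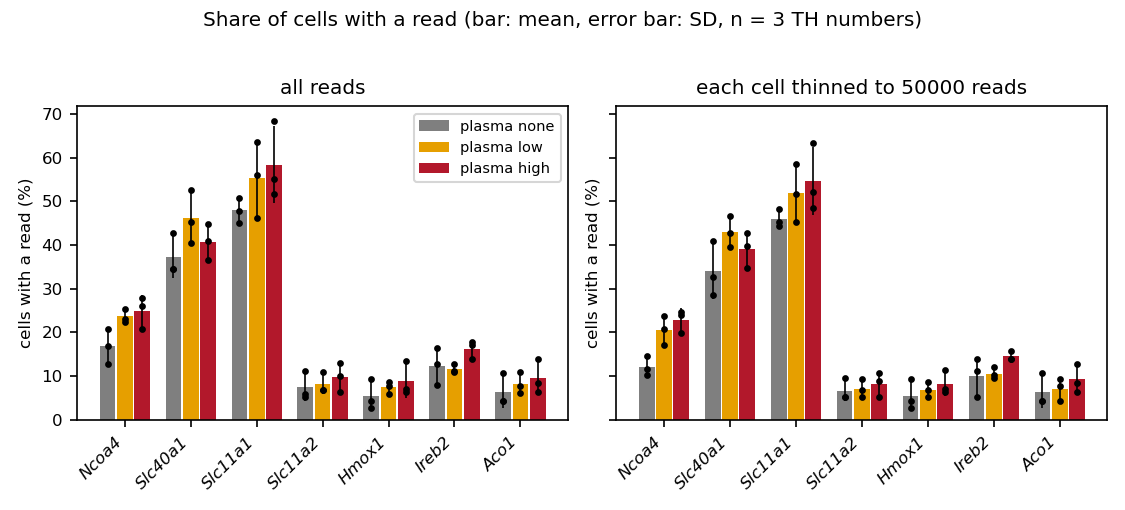
Share of cells with at least 1 read (vertical axis, %, from 0) of the 7 members other than ferritin, with all reads (left) and with every cell thinned to 50000 reads (right); bars are means of the 3 TH numbers, error bars SD and points the TH numbers. Ncoa4 is lowest in the none group in both panels, and Slc11a2, Hmox1 and Aco1 stay under 15% of cells throughout.

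Slc40a1, which encodes the iron exporter ferroportin, had overlapping levels in the 3 groups. It had 172.5, 218.96 and 312.4 CPM in the none group (234.6 ± 71.2), 212.7, 266.8 and 258.8 in the low group (246.1 ± 29.2) and 185.5, 359.02 and 256.6 in the high group (267.1 ± 87.2). In TH 2 the high group was the highest, and in TH 3 the none group was. The log2 ratio of high to none was 0.18 ± 0.50. A read was found in 37.3%, 46.2% and 40.7% of the cells of the none, low and high groups. In cells with a read the median was 516.5, 486.7 and 478.4 CPM.

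Slc11a1, a divalent metal transporter of the phagosome and late endosome known from macrophages, had its lowest mean in the low group. In TH 3 the high group was the lowest. It had 363.1, 357.4 and 371.4 CPM in the none group (363.98 ± 7.03), 289.4, 322.5 and 321.8 in the low group (311.2 ± 18.9) and 439.4, 411.7 and 299.4 in the high group (383.5 ± 74.1). The low group lay below the none group without overlap, as in 4.21% of the genes tested, with a log2 ratio of −0.23 ± 0.09 that was negative in 3 of 3 TH numbers and under each of 16 alternatives (−0.27 to −0.16). It is small against the 1.5-fold rule, and 11.8% of the genes tested were lower in 3 of 3. The high group was above the none group in TH 1 and 2 and below it in TH 3 (0.06 ± 0.32). The share of cells with a read had another order than the level. It was 47.98% in the none group, 55.3% in the low group and 58.6% in the high group, and the median among cells with a read was 650.2, 515.8 and 546.3 CPM.

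Slc11a2, the related transporter that carries iron out of endosomes, was far lower. It had 23.1, 22.4 and 22.96 CPM in the none group, 23.5, 28.8 and 28.04 in the low group and 25.7, 15.9 and 43.3 in the high group. The ratio of low to none was positive in 3 of 3 TH numbers (0.22 ± 0.17), and the high group lay on both sides of the none group. A read was found in 7.51%, 8.26% and 9.66% of cells. Slc11a1 made up 94.1% ± 0.08 of the reads of this pair in the none group, 92.1% ± 0.36 in the low group and 92.7% ± 4.70 in the high group. The share in the low group was 1.52, 2.30 and 2.19 percentage points below that in the none group. Slc11a2 exons overlap those of Gm5475 on the other strand by 402 bases, and Gm5475 had 0.133 CPM.

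Hmox1, the enzyme induced by heme and oxidative stress, was found in few cells of any group. It had 16.8, 33.97 and 55.03 CPM in the none group, 14.4, 40.2 and 34.5 in the low group and 34.1, 70.8 and 23.4 in the high group. The groups overlapped throughout. The log2 ratio of high to none was 0.98 and 1.04 in TH 1 and 2 and −1.20 in TH 3 (0.27 ± 1.28). A read was found in 5.49% of none cells (95% interval 3.34 to 8.44), 7.41% of the low group (4.90 to 10.7) and 8.97% of the high group (5.94 to 12.9), and these intervals overlap. In the none group, 1 cell held 33.7% of all Hmox1 reads.

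Of the genes for the 2 iron regulatory proteins, Ireb2 had 25.2, 6.10 and 132.3 CPM in the none group, 20.1, 82.2 and 31.4 in the low group and 66.2, 124.9 and 34.7 in the high group. Its highest sum was 21.7 times its lowest, the widest range of the 9 members. The high group against the none group gave log2 ratios of 1.36, 4.15 and −1.90 (1.20 ± 3.03). Against the low group, the high group was higher in 3 of 3 TH numbers (0.80 ± 0.78, 1.74-fold). This made Ireb2 the 1 of 6 members tested to meet the rule in that comparison, where 11.1% of all genes tested did (5.48% upward). Fth1 (0.26 ± 0.14) and Ftl1 (0.16 ± 0.07) were also higher in high than in low in 3 of 3 TH numbers, beside 14.1% of all genes. The cell with the most Ireb2 reads held 28.2% to 28.998% of them in each group. Without the top cell of each sum the ratio was 0.60 and no longer had the same sign in every TH number. It was 0.57 with every cell weighing the same, 0.49 after thinning, 0.37 without TH 1 and −0.07 among cells of 100000 to 400000 reads. A read was found in 12.4%, 11.7% and 16.2% of the cells of the none, low and high groups.

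Aco1 had 9.74, 38.2 and 11.6 CPM in the none group, 19.1, 46.3 and 28.5 in the low group and 28.8, 30.5 and 10.7 in the high group. The low group was above the none group in 3 of 3 TH numbers (0.80 ± 0.49), but a read was found in 6.36%, 8.26% and 9.66% of cells, under the 10% the rule asks. The top cell held 25.2% of the Aco1 reads in the none group, 20.9% in the low group and 14.1% in the high group.

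**Figure D5:**
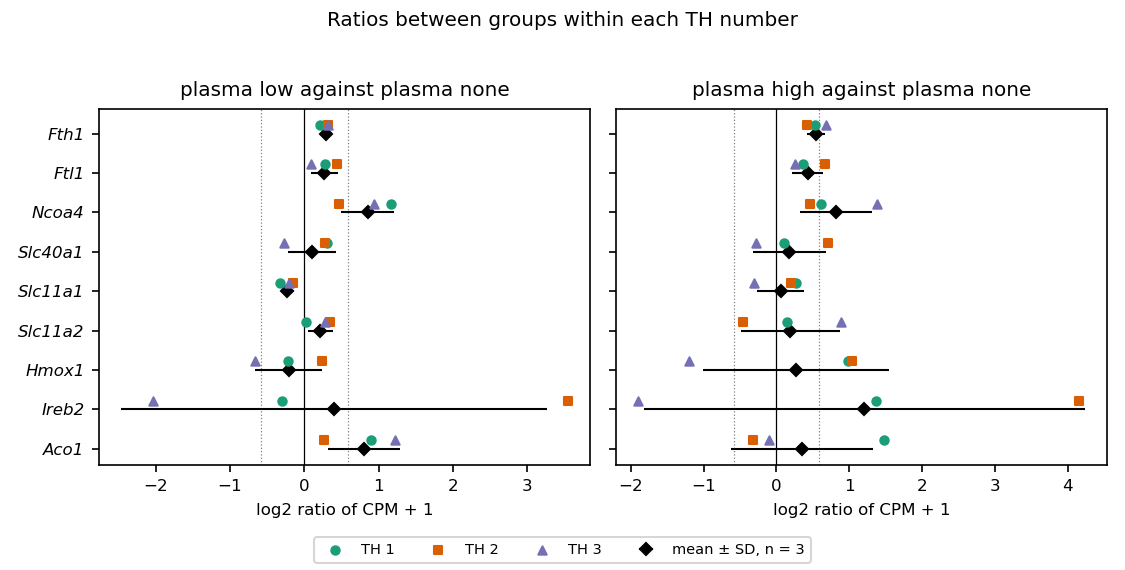
Log2 ratio of CPM + 1 to the none group (horizontal axis) for each of the 9 genes in the low group (left) and the high group (right), with coloured points for the TH numbers, black diamonds and lines for the mean ± SD (n = 3) and dotted lines at 1.5-fold. Fth1, Ftl1 and Ncoa4 lie right of 0 in every TH number of both panels, and Ireb2 and Hmox1 fall on both sides.

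Over all 9 members, the median log2 ratio was 0.35 in high against none, beside 0.05 over all genes tested, and all 9 means were positive, as were 3035 of the 5534 genes tested. The 9 include the 3 members that did not pass the conditions on low values. It was 0.27 in low against none, beside 0.05, and 0.16 in high against low, beside 0.01. The 3 comparisons share groups and are not independent. By TH number the median in high against none was 0.53, 0.46 and −0.10, so in TH 3 most members did not lie above the none group.

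For a comparison of levels between genes, CPM were divided by the length of the principal transcript in kilobases. On this scale Fth1 came first with 1046 CPM per kb over the 9 sums and Ftl1 second with 857.3. With the length of all annotated exons in its place the order of these genes turned, with 450.4 for Fth1 and 619.3 for Ftl1. Slc11a1 followed with 152.4 CPM per kb of principal transcript and Slc40a1 with 73.96. Hmox1 had 22.9, Ireb2 10.1, Slc11a2 8.58, Aco1 6.48 and Ncoa4 6.14. Neighbours among these last 5 did not differ beyond their spread over the 9 sums, of which the highest was 2.71 to 21.7 times the lowest. Without division by length, 0.166% of all genes had more CPM than Fth1, 0.36% had more than Ftl1 and 13.5% had more than Hmox1.

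From cell to cell, only the 2 ferritin chains followed each other among the members. The Spearman correlation of their CPM over cells, averaged over the 9 sets of cells, was 0.23 (0.12 to 0.39 over sets) and 0.22 after thinning. The other 35 pairs of members lay between −0.07 and 0.07 on average. These values describe 987 cells that share libraries' depth and composition, and most members are too sparse for a correlation to be read. Among 673 genes read in at least 50% of cells, the 3 most like Fth1 were Tmsb4x, which encodes an actin-binding peptide (0.26), Gm10252 (0.25) and Ftl1 (0.23). The 3 most like Ftl1 were Gm10252 (0.97), the gene overlapping it, Tmsb4x (0.25) and Fth1 (0.23). For Slc11a1 the nearest were Ctsb (0.12), Ckb (0.11) and Nfe2l2 (0.10), which are weak. The other members were read in under 50% of cells and were not compared in this way.

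Beyond the 9 members, 86 other genes of iron and heme handling were in the tables, chosen as lists of uptake, chaperones, mitochondrial iron and iron-sulfur clusters, heme synthesis, heme transport and breakdown, regulators and transcripts with an IRE. In high against none 44 of them were tested. Of these, 1 rose and 2 fell, or 6.82% where 16.3% of all genes tested met the rule. Urod, an enzyme of heme synthesis, rose by 1.85 ± 2.32 on the log2 scale, with 0.71, 4.52 and 0.33 in TH 1, 2 and 3, and TH 2 rests on a none sum of 1.02 CPM. The mean of Urod was 13.2 CPM in the none group and 34.2 in the high group. So it met the condition of 20 CPM only through the group where it was higher. Mcoln1, which encodes a lysosomal cation channel that can pass iron, fell by 0.87 ± 0.69. Blvra, which encodes biliverdin reductase A, fell by 0.82 ± 0.99. This enzyme, which acts after heme oxygenase, had 28.9 ± 7.94 CPM in the high group against 53.7 ± 24.3 in the none group, and its TH 1 ratio was −0.09.

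In low against none 42 of these genes were tested, 4 rose and 1 fell, or 11.9% beside 10.2% of all genes. The 3 largest rises were in Blvrb, a biliverdin reductase (0.73 ± 0.60), Slc48a1, the heme transporter of the endolysosome (0.69 ± 0.36), and Tmem14c, a mitochondrial porphyrin transporter (0.67 ± 0.47). Nfs1, the cysteine desulfurase that supplies sulfur for iron-sulfur clusters, fell by 0.94 ± 0.52. In high against low 43 were tested, 5 rose and 4 fell, or 20.9% beside 11.1% of all genes. Fbxl5, which marks IRP2 for degradation when iron is plentiful, rose by 1.13 ± 0.14 with 1.10, 1.02 and 1.29 in TH 1, 2 and 3. Its levels were 86.3, 26.8 and 46.6 CPM in the low group and 185.98, 55.1 and 115.1 in the high group. Against the none group, Fbxl5 in the high group differed by 2.02, −0.19 and 0.83. Urod rose by 0.86 ± 0.39 and Fech, which inserts iron into heme, by 0.81 ± 0.31. Urod had a mean of 19.4 CPM in the low group, so it again met the condition of 20 CPM only through the high group. The 3 largest falls were in Blvra (−0.93 ± 0.47), Mcoln1 (−0.92 ± 0.77) and Abcg2, an exporter that can carry porphyrins (−0.69 ± 0.40).

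The most abundant gene of the uptake list by CPM was Trf, which encodes transferrin, the iron carrier of plasma. It had 1587, 1810 and 1566 CPM in the none group, 1439, 2624 and 1456 in the low group and 1896, 2476 and 1883 in the high group. The high group lay above the none group without overlap, as in 8.51% of the genes tested. The log2 ratio was 0.33 ± 0.11, below the 1.5-fold rule. Transferrin's receptor gene, Tfrc, was read in at most 2.02% of the cells of a group and was not tested. In 5 of the other lists the most abundant genes were Pcbp1, an iron chaperone that loads ferritin (log2 ratio of high to none −0.08 ± 0.08), Iscu (0.24 ± 0.56), Ppox (−0.37 ± 0.39), Slc46a1 (−0.05 ± 0.26) and Nfe2l2 (−0.43 ± 0.98). None of these 5 met the rule in high against none. The protein of Nfe2l2 is a known activator of ferritin and Hmox1 genes. The Nfe2l2 ratios of high to none were −0.15, −1.52 and 0.37 in TH 1, 2 and 3. The part of Nfe2l2 in the ferritin levels was not tested.

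Markers of other cell types were compared since border macrophages and red cells, among others, also carry iron and heme genes. The 8 microglia markers summed to 49829 ± 1725 CPM in the none group, 48931 ± 4653 in the low group and 49554 ± 4288 in the high group. Of 8 border macrophage markers, 6 had 0 reads in every group, Cd163, Lyve1 and Pf4 among them. Their sum was 0.66 CPM in the none group (0.22 to 1.34 over TH numbers), 9.89 in the low group (2.64 to 22.2) and 2.30 in the high group (0 to 4.50), most of it from Mrc1. Red cell markers summed to 0.96 (0 to 1.92), 0.58 (0.04 to 1.36) and 2.00 CPM (0.58 to 4.65), with Slc4a1 at 0 in every group. All 6 neutrophil markers were at 0. The 6 neuron markers summed to 0.23 (0 to 0.65), 0.77 (0 to 2.32) and 19.4 CPM (0.04 to 57.98), of which nearly all came from TH 2 of the high group, with Slc17a7 and Gad1 at 0 in every group. The 6 endothelial markers summed to 14.1 (4.68 to 29.5), 18.6 (14.4 to 22.9) and 17.8 CPM (14.1 to 23.6), with Cldn5 at 0. The 6 astrocyte markers summed to 3.5996 (1.62 to 5.40), 10.3 (1.07 to 27.8) and 1.65 CPM (0 to 4.95), with Gja1 and Aldh1l1 at 0. The 7 monocyte markers summed to 2.65 (0.25 to 7.25), 2.81 (0 to 8.42) and 2.66 CPM (0 to 7.57), with Ly6c2 at 0. The 6 oligodendrocyte markers summed to 49.6 (21.2 to 68.9), 49.7 (28.6 to 60.9) and 74.1 CPM (56.4 to 83.4), with Mog and Cldn11 at 0, and the part of these reads in the ferritin difference was not tested, nor was that of the neuron reads. Cells with at least 3 markers of another type at 10 CPM or more were 1 in the none group, 0 in the low group and 1 in the high group, and without them the ferritin difference was again 0.075 percentage points. A list of 14 immediate-early and heat-shock genes, which mark stress during isolation, summed to 661.5 ± 135.9, 602.2 ± 92.5 and 663.8 ± 54.1 CPM in the none, low and high groups. Of its 4 genes tested, Jun fell in high against none and in high against low.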

How the data were processed

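The deposited values are counts, whole numbers of reads per gene and cell, in 1 table for each TH number. In 1 column of TH 3 the deposited values are estimated counts, since each value is a mean over a gene's probes per the file headers and 2 genes with 2 probes are not whole numbers there. The file headers name alignments limited to top hits for TH 2 and TH 3 and do not for TH 1. All ratios were taken within a TH number. The submitters' processing notes name bcl2fastq, Trim Galore, STAR 2.5.3a, Seurat and the build mm10, and how reads were counted, and whether by strand, is not given in the sources used here. Each column's well and TH number matched it to 1 of 1045 cells among 1111 labelled, and the other 66 were not analysed here. The 1045 columns of standard deviations were not used.

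Reads of passing cells were summed per group and TH number and scaled to CPM with TMM factors (edgeR 4.0.16, R 4.3.3). Python 3.11.15 was used for ratios, exact Poisson and Clopper-Pearson 95% intervals (counting error only, as reads carry no molecular identifiers) and thinning with a fixed seed. No doublet caller was run, since cells were sorted singly into wells, and no clustering was done. Of 35583 gene IDs, 35546 were found in GENCODE M21, 99.6% of them with identical coordinates. The method was tested on simulated sums with the same small spread for every gene and every gene taken as detected. Genes whose reads rest on few cells, such as Ncoa4 and Ireb2, were not simulated as such.

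The 9 members, the gene lists and the rules were chosen with earlier results of these data known. All members are named. From the lists are named the genes that met the 1.5-fold rule, at most the 3 largest in each direction and comparison, and the most abundant of each list, of which 1 is not reported here. Tfrc was added after its values were seen. Alternatives covered scaling (with DESeq2 1.42.0 size factors), pseudocount, cell and gene filters, weight of cells, thinning, top cells, outer wells, each TH number and the fold. The ranges for cells of 100000 to 400000 reads and without cells with markers of another type were chosen after seeing the data.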

Additional observations from a re-analysis of the deposited data

How the results depend on the processing

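Fth1 and Ftl1 were higher in the high than in the none group under all 16 alternatives. The ferritin share of reads differed by 0.075 percentage points, and by 0.087 with every cell weighing the same or thinned, 0.064 without the top cell of each sum and 0.083 without the outermost wells. The share of tested genes that met the 1.5-fold rule moved with the filter on low values, the fold, the number of TH numbers and the replicate block. In high against none it was 16.3% (903 genes). It was 19.1% (1995 genes) at a mean of at least 5 CPM and no share of cells, 5.15% at 2-fold and 22.9% to 28.1% without 1 TH number. In low against none it was 10.2% (561 genes), with 14.6% (1515 genes), 2.64% and 17.97% to 20.9%. In high against low it was 11.1% (636 genes), with 14.8% (1540 genes), 3.28% and 19.2% to 22.1%. Taken with no replicate block, as a ratio of group means, the shares were 23.3%, 15.9% and 17.9% (1292, 874 and 1021 genes), and the count of members stayed at 1. Same-numbered sums deviated together, but weakly. The correlation over 6951 genes was 0.031 to 0.090 in 9 pairs of the same TH number. It was −0.057 to −0.004 in 18 pairs of different TH numbers, so the 2 ranges did not overlap. These small values do not show what the numbers stand for.

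The count of 1 member rests on sparse genes. In high against none it was 2 with every cell weighing the same or thinned, 0 without the top cells, at 2-fold and among cells of 100000 to 400000 reads, and 1 to 2 without 1 TH number. In low against none it was 0 without the top cells and at 2-fold, 2 at a mean of at least 5 CPM, and 0 to 2 without 1 TH number. In high against low it was 0 with every cell weighing the same, thinned, without the top cells and at 2-fold, and 0 to 1 without 1 TH number. The members' median in high against none, 0.35, was 0.21 to 0.52 without 1 TH number. It was 0.18 without the outermost wells and 0.56 without the top cells. The members' median in low against none was 0.15 to 0.31 without 1 TH number, and that in high against low was 0.26 with cells of at least 100000 reads and 1000 genes. Ireb2 in high against low turned from 0.80 to −0.071 among cells of 100000 to 400000 reads. The cause of these moves was not tested. Hmox1, Slc11a2 and Aco1 were read in fewer than 10% of cells of each group, and in 5.49% to 9.31% after thinning.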
